A study of Rattus norvegicus with 6 samples.

Results

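The genes described here are the D cyclins *Ccnd1*, *Ccnd2* and *Ccnd3*, their kinase partner *Cdk4*, and 5 genes for inhibitors of cyclin-dependent kinases, namely *Cdkn1a*, *Cdkn1b*, *Cdkn2a*, *Cdkn2b* and *Cdkn2c*. They were found by matching the RefSeq transcript identifier of each row of the array table to a rat gene table. All 9 had a row, 1 for each gene, among the 26300 genes and unnamed transcripts that were tested. Messenger RNA was measured in the skeletal muscle (soleus and gastrocnemius together) of male Wistar rat pups aged 1 day, on NimbleGen arrays with a single dye (Cy3) and 1 array for each pup. The low birth weight (LBW) group held 3 pups from percentiles 5 to 25 of birth weight, and the average birth weight (ABW) group held 3 pups. The sample labels place the ABW pups in percentiles 25 to 75, whereas the protocol of the same samples gives 50 to 75. Neither group carried a transgene or received a drug as a treatment. By the paper's methods, the pups of day 1 were killed with an overdose of anesthetic. The labels do not say which litter a pup came from, so that littermates may be among them. Each gene has a single log2 value per pup, where 1 unit is a doubling of signal, and these values ran from 4.577 to 15.49 with array medians between 8.695 and 8.757. The study also blotted cyclin D1, Cdk4, Cdk6, P16 (the product of *Cdkn2a*) and P21 (the product of *Cdkn1a*) in skeletal muscle of pups of this age, and the question asked of the arrays was how the transcripts of these regulators and their relatives compared between LBW and ABW pups.

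A cell leaves the G1 phase and copies its DNA when the retinoblastoma protein and its relatives are phosphorylated and release the E2F transcription factors. The D cyclins, whose levels follow growth signals, bind Cdk4 or Cdk6 and begin this phosphorylation. Inhibitors of the INK4 family (*Cdkn2a* to *Cdkn2d*) bind Cdk4 and Cdk6 alone, whereas those of the Cip/Kip family (*Cdkn1a* to *Cdkn1c*) bind cyclin and kinase together, block Cdk2, and can also help D cyclins and Cdk4 to assemble. In muscle, precursors leave the cycle as they fuse into fibres. *Cdkn1a* is a known marker of that exit, and cyclin D3 is the D cyclin best known for staying high in differentiated fibres.

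Promoter sequences are shown for *Ccnd3*, a D cyclin gene, and for the kinase gene *Cdk4*, each with a motif of a known factor that was found in it. They are the 250 bases before a RefSeq transcription start, from the assembly GRCr8, written 5′ to 3′ on the strand of the gene. A single start was used for each gene, and other starts may have other motifs. The windows of *Ccnd3*, *Cdkn2a* and *Cdkn2c* lie inside the annotated span of the gene. Those of *Cdkn1a*, *Cdkn1b* and *Cdkn2b* overlap it. The *Ccnd3* promoter (chr9:20897876-20898125, minus strand) has both of its GC boxes in capitals, and the *Cdk4* promoter (chr7:64771203-64771452, plus strand) has its 3 E boxes in capitals.
Ccnd3: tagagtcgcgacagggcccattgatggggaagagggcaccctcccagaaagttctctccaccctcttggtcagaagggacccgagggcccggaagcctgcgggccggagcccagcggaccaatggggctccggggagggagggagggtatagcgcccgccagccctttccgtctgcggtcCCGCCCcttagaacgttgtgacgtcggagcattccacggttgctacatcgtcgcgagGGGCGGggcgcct
Cdk4: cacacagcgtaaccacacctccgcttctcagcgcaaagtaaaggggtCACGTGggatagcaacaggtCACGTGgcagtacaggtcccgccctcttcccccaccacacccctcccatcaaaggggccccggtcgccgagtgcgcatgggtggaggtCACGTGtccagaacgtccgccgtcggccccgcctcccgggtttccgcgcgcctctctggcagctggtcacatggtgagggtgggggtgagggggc
The motifs were searched on both strands, and their positions are counted backwards from the start site. The E box CACGTG, which Myc and its partners bind, was in the promoter of *Cdk4* alone of the 7 genes with a promoter in the table, at -203, -183 and -95. Of all 33469 promoters of the same length, 5.59% held it. The GC box GGGCGG, bound by Sp1, was in 6 of the 7 promoters (all but *Cdkn1a*) and in 30.47% of all. CCAAT was found in *Cdkn1b* and *Ccnd3* (34.02% of all), and the E2F-like motif TTTNNCGC in 0 of the 7 (4.11% of all). These matches describe letters in the window and show neither a bound factor nor a cause of any value below. The promoters of *Ccnd1* and *Ccnd2* are not shown.

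The tissue was checked first. Of 9 marker genes of skeletal muscle fibres, 7 had a row and all were above the median signal, with *Acta1* (skeletal actin) the brightest at 15.32 in LBW and 15.36 in ABW pups. Here and below, a gene has a row only where its identifier was matched, and a gene without one may still be on the array. The mean of these 7 genes, relative to the ABW mean, was 0.00, 0.01 and 0.09 in LBW 1, 2 and 3 and 0.09, -0.05 and -0.04 in ABW 1, 2 and 3, so that the groups overlapped. The most different of them was *Des* (desmin), with a log2 fold change of 0.22 and groups that did not overlap. The samples also carried RNA of other cells, and in bulk tissue fewer cells of a type and less RNA per cell cannot be told apart. Among the cell type markers, bone marker genes had the widest range of signal over the pups. Their summed signal was at 15.09, 12.01 and 15.79 on the log2 scale in LBW 1, 2 and 3 and at 10.95, 11.09 and 11.28 in ABW 1, 2 and 3. LBW 1 and LBW 3 were thus far above the rest, and LBW 2 lay much nearer to the ABW pups.

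None of the 9 genes was called at the threshold of the study, which is a p under 0.05 together with a fold change of at least 1.5 (0.585 on the log2 scale), and which was applied here to the unadjusted p of limma because the test behind the study's p is not named for the arrays. That threshold called 4.27% of all 26300 features, 2.38% as higher and 1.89% as lower in LBW pups. Without the fold change, 2 of the 9 (*Ccnd1* and *Ccnd3*, both higher in LBW) had an unadjusted p under 0.05, compared to 12.4% of all features, 5.63% higher and 6.73% lower. After Benjamini-Hochberg adjustment over all features by limma, 0 of the 9 had an adjusted p under 0.05, compared to 0.0% of all features. The smallest adjusted p was 0.400 among the 9 genes and 0.214 among all. The LBW values lay wholly above the ABW values for 3 of the 9 (*Ccnd1*, *Ccnd3* and *Cdkn1a*) and wholly below for 0, whereas 17.4% of all features had groups that did not overlap, 7.27% with LBW higher and 10.1% with LBW lower. The median log2 fold change of the 9 was 0.02, beside -0.02 for all features, and the median absolute change was 0.16, beside 0.13.

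**Figure D1:**
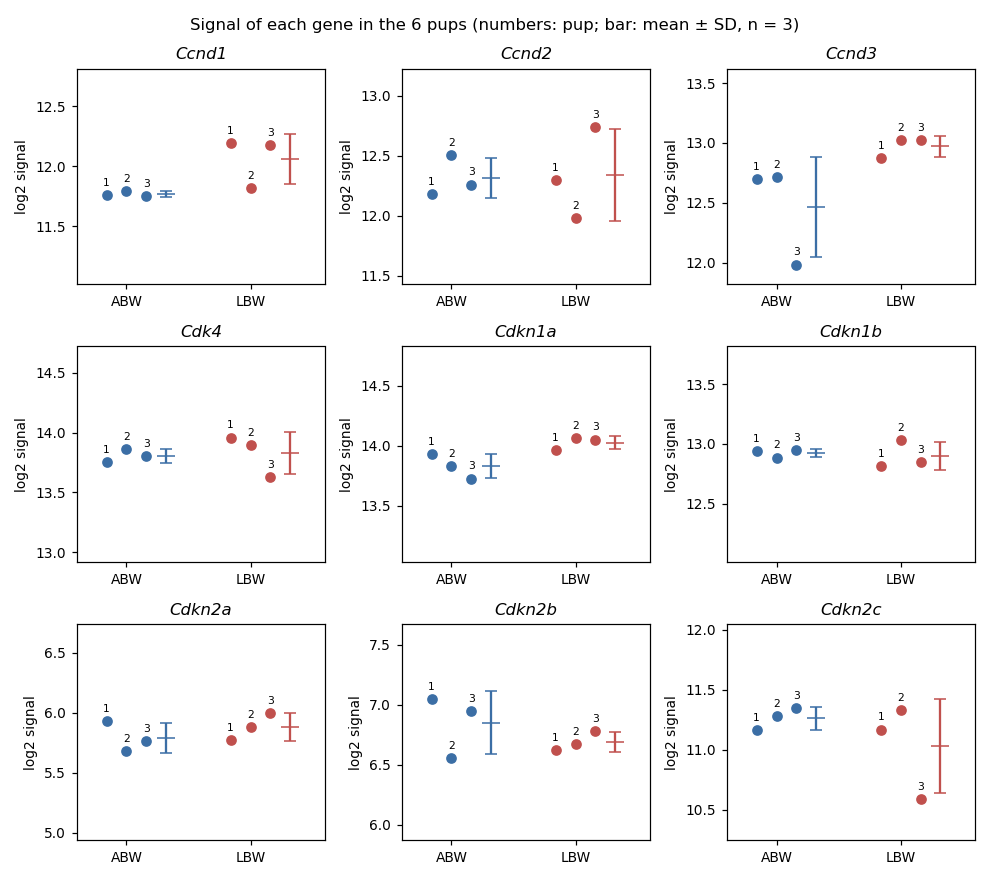
Log2 signal of each of the 9 genes in every pup, ABW in blue and LBW in red, with the pup number above each point and the mean ± SD (n = 3) beside each group; every panel spans the same number of log2 units. The LBW points lie above all ABW points for *Ccnd1*, *Ccnd3* and *Cdkn1a*, by 0.022, 0.154 and 0.032 between the nearest pups, and the groups overlap for the other 6 genes.

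The estimates for the 3 D cyclins lay at different distances from the ABW level, and the differences between these genes were not tested. *Ccnd1* (NM_171992), whose product cyclin D1 links growth signals to Cdk4, was at 12.19, 11.82 and 12.18 in LBW 1, 2 and 3. In ABW 1, 2 and 3 it was at 11.76, 11.79 and 11.75. The ABW pups were close together (SD 0.02), LBW 1 and LBW 3 were high, and LBW 2 exceeded the highest ABW pup by only 0.022. The log2 fold change was 0.29 (limma, SE 0.12, unadjusted p = 0.0498 and adjusted p = 0.404), which is 1.23-fold with a 95% interval from 1.0002 to 1.5009. With 1 pup left out in turn it ran from 0.23 (without LBW 1) to 0.42 (without LBW 2, unadjusted p = 0.0047 by limma), and its unadjusted p was above 0.05 when any pup other than LBW 2 was left out.

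*Ccnd3* (NM_012766), encoding cyclin D3, had the largest difference of the 9 genes. It was at 12.87, 13.02 and 13.02 in LBW 1, 2 and 3, and at 12.70, 12.72 and 11.99 in ABW 1, 2 and 3. The 3 LBW pups lay close together above all ABW pups, and ABW 3 was apart from the other ABW pups on the low side. The log2 fold change was 0.51 (limma, SE 0.21, unadjusted p = 0.0479 and adjusted p = 0.400), a 1.42-fold difference with a 95% interval from 1.0043 to 2.0053. Its size depended on ABW 3, because without that pup it was 0.26 (unadjusted p = 0.0468 by limma), while without ABW 1 or without ABW 2 it was 0.62 and 0.63 and passed the threshold of the study. Its unadjusted p was above 0.05 when any LBW pup was left out (0.0713, 0.1066 and 0.107 by limma without LBW 1, 2 and 3).

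*Ccnd2* (NM_022267), encoding cyclin D2, showed no separation. It was at 12.30, 11.98 and 12.74 in LBW 1, 2 and 3 and at 12.18, 12.51 and 12.26 in ABW 1, 2 and 3. The lowest and the highest pup were both LBW pups. The log2 fold change was 0.02 (limma, SE 0.20, adjusted p = 0.976), with a 95% interval from -0.47 to 0.51, and its direction turned with single pups, being -0.18 without LBW 3. Averaged over the 3 D cyclins, the shift from the ABW mean was 0.27, 0.09 and 0.46 in LBW 1, 2 and 3 and 0.03, 0.16 and -0.18 in ABW 1, 2 and 3. LBW 2 lay below ABW 2 on this mean, so that the groups overlapped although 2 of the 3 genes did not. The LBW mean of this shift was 0.27, and it was 0.18 without ABW 3 or without LBW 3.

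*Cdk4* (NM_053593), the kinase that the D cyclins activate, was at 13.96, 13.90 and 13.63 in LBW 1, 2 and 3 and at 13.75, 13.86 and 13.80 in ABW 1, 2 and 3. LBW 1 and LBW 2 were the highest pups and LBW 3 the lowest, with all ABW pups between them. The log2 fold change was 0.02 (limma, SE 0.11, adjusted p = 0.953), and the 95% interval from -0.25 to 0.29 lay inside a 1.5-fold difference in either direction. *Cdk6* had no matched row and was not analysed here.

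**Figure D2:**
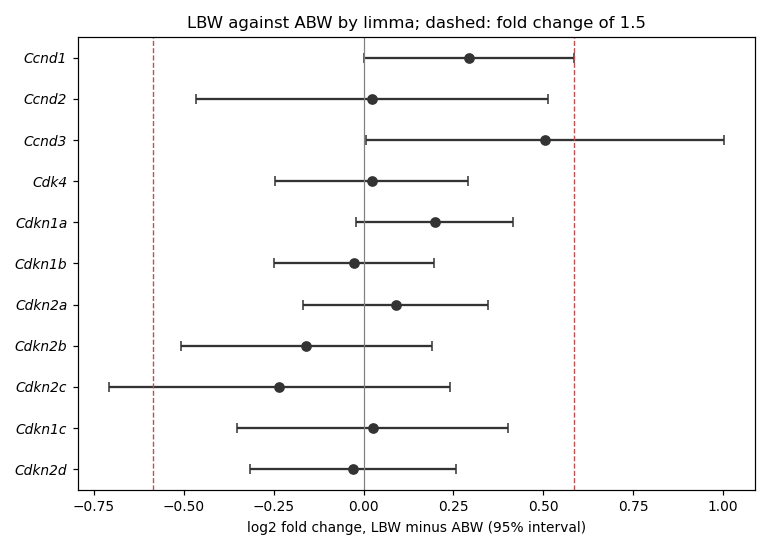
Log2 fold change of LBW over ABW (points) with its 95% interval by limma (bars) for the 9 genes and for *Cdkn1c* and *Cdkn2d*, the remaining genes of the inhibitor families; dashed lines mark a fold change of 1.5 in either direction. Every point lies between the dashed lines, and the intervals of *Ccnd1*, *Ccnd3* and *Cdkn2c* reach past one of them.

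Among the Cip/Kip inhibitors, *Cdkn1a* (NM_080782), which encodes P21, was the gene whose groups did not overlap. It was at 13.96, 14.07 and 14.05 in LBW 1, 2 and 3 and at 13.93, 13.83 and 13.73 in ABW 1, 2 and 3. LBW 1 and ABW 1 were the nearest pups, 0.032 apart. The log2 fold change was 0.20 (limma, SE 0.09, unadjusted p = 0.0705 and adjusted p = 0.444), which is 1.15-fold with a 95% interval from 0.985 to 1.33. An exact permutation test (2-sided) gave p = 0.1 for *Cdkn1a* as for *Ccnd1* and *Ccnd3*, the smallest p that 3 pups against 3 allow. *Cdkn1a* stayed between 0.15 and 0.25 with any single pup left out.

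*Cdkn1b* (NM_031762), which encodes p27, the inhibitor best known for holding resting cells in G1, was at 12.82, 13.03 and 12.85 in LBW 1, 2 and 3 and at 12.94, 12.89 and 12.95 in ABW 1, 2 and 3. LBW pups were both the lowest and the highest. Its log2 fold change was -0.03 (limma, SE 0.09, adjusted p = 0.931), with a 95% interval from -0.25 to 0.20. The remaining family member *Cdkn1c*, an imprinted gene encoding p57, was read by 2 rows that were averaged, and had a log2 fold change of 0.03 (limma, SE 0.16, adjusted p = 0.965).

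Of the INK4 inhibitors, *Cdkn2a* and *Cdkn2b* were dim. *Cdkn2c* (NM_131902), encoding p18, was at 11.17, 11.33 and 10.59 in LBW 1, 2 and 3 and at 11.16, 11.28 and 11.35 in ABW 1, 2 and 3. LBW 3 was the low pup, and LBW 1 and LBW 2 lay within the ABW values. The log2 fold change was -0.23 (limma, SE 0.20, adjusted p = 0.674), and it was -0.01 without LBW 3. *Cdkn2d* (NM_001009719), encoding p19, was at 9.20, 9.06 and 9.03 in LBW 1, 2 and 3 and at 9.28, 8.92 and 9.16 in ABW 1, 2 and 3, with overlapping groups and a log2 fold change of -0.03 (limma, SE 0.12, adjusted p = 0.942).

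*Cdkn2a* and *Cdkn2b* lie side by side in the genome and encode the inhibitors P16 and P15, which are known to accumulate in ageing cells. *Cdkn2a* (NM_031550) was at 5.77, 5.88 and 5.998 in LBW 1, 2 and 3 and at 5.93, 5.68 and 5.77 in ABW 1, 2 and 3. *Cdkn2b* (NM_130812) was at 6.62, 6.67 and 6.78 in LBW 1, 2 and 3 and at 7.05, 6.55 and 6.95 in ABW 1, 2 and 3. The groups overlapped for both genes, with log2 fold changes of 0.09 (limma, SE 0.11, adjusted p = 0.779) and -0.16 (limma, SE 0.15, adjusted p = 0.702). Single pups moved both, *Cdkn2a* from 0.03 to 0.16 and *Cdkn2b* from -0.06 (without ABW 1) to -0.31 (without ABW 2, unadjusted p = 0.033 by limma). The deposited values hold no background or detection call, so olfactory receptor genes, most of which are silent in muscle, were taken as a guide to dim signal. The 824 such genes had a median of 5.50 and a 95th percentile of 7.15, and *Cdkn2a* was brighter than 67.1% and *Cdkn2b* than 91.0% of them. The signals of both genes thus lay within the range of these largely silent genes, where a difference in RNA may not show as a difference in signal. The other 7 genes were brighter than 100% of the receptor genes. *Cdkn2a* also encodes Arf from an alternative first exon, and a single row does not tell which of its transcripts was read.

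Set side by side, the inhibitor families had small mean shifts, and 2 of the 4 genes behind the INK4 mean are the dim *Cdkn2a* and *Cdkn2b*, where a difference in RNA may not show. The mean shift of the Cip/Kip genes (*Cdkn1a*, *Cdkn1b* and *Cdkn1c*) from the ABW mean was 0.10, 0.08 and 0.02 in LBW 1, 2 and 3 and 0.07, 0.04 and -0.11 in ABW 1, 2 and 3. That of the INK4 genes (*Cdkn2a* to *Cdkn2d*) was -0.07, -0.02 and -0.16 in the LBW pups and 0.10, -0.15 and 0.05 in the ABW pups, in the same order. The groups overlapped for each family. They also overlapped in the difference of Cip/Kip minus INK4, which was 0.17, 0.10 and 0.18 in LBW 1, 2 and 3 and -0.03, 0.19 and -0.16 in ABW 1, 2 and 3. The Cip/Kip shift was 0.07 ± 0.04 and the INK4 shift -0.08 ± 0.07 (SD, n = 3) in LBW pups, with an SD of 0.09 and 0.13 among the ABW pups, and the families were not shown to differ. Single pups moved these means, the Cip/Kip shift being 0.01 without ABW 3 and 0.10 without ABW 1, and the INK4 shift -0.16 without ABW 2, -0.03 without ABW 1 and -0.05 without LBW 3.

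**Figure D3:**
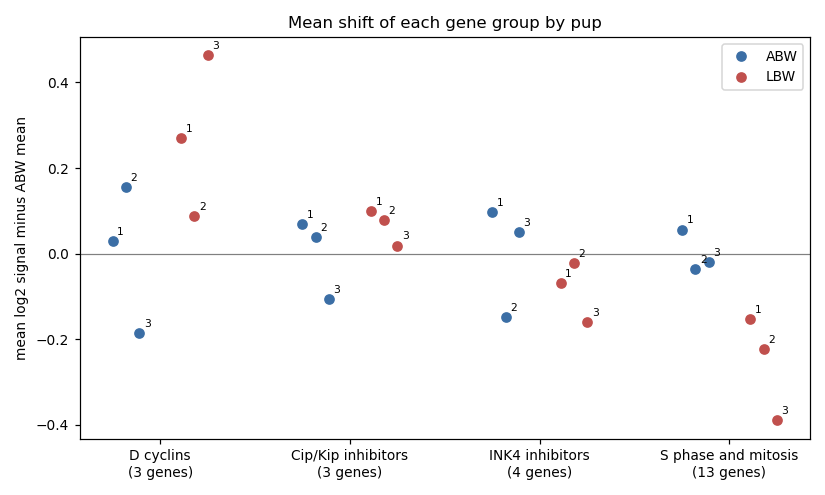
Mean log2 signal of each gene group in each pup, relative to the mean of the ABW pups, for the 3 D cyclins, the 3 Cip/Kip inhibitors, the 4 INK4 inhibitors and 13 genes of S phase and mitosis (numbers give the pup). LBW and ABW points overlap for the D cyclins and for both inhibitor families, whereas the LBW pups lie at -0.15 or lower and the ABW pups at -0.04 or higher for the genes of S phase and mitosis.

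At the protein level the study looked at cyclin D1, Cdk4, Cdk6, P16 and P21 by western blotting, and those blots were not analysed here. The genes of 4 of these proteins had a row, but that of *Cdkn2a* does not tell the transcript of P16 from that of Arf. *Ccnd1* was 1.23-fold and *Cdkn1a* 1.15-fold higher in LBW pups with no overlap of the groups, neither reaching the threshold of the study. *Cdk4* had a fold of 1.02 with overlapping groups, and the dim *Cdkn2a* signal had a fold of 1.06, also with overlapping groups.

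Genes that act around and after the D cyclins were then counted by list, and 0 genes of these 4 lists were called at the threshold of the study, which called 4.27% of all features, a share too small to read anything from a count of 0 in lists of this length. Of the late G1 genes, 4 of 10 had a row, 1 higher and 3 lower, with *Cdk2*, the kinase that acts after Cdk4, at a log2 fold change of -0.18 (limma, SE 0.14, adjusted p = 0.661) and *Ccnh*, a subunit of the kinase that activates other Cdks, at -0.11 (limma, SE 0.12, adjusted p = 0.733). Of the retinoblastoma and E2F genes, 4 of 15 had a row, 2 higher and 2 lower, not including *Rb1* or *E2f1*, which were not analysed here. *Rbl2*, the retinoblastoma relative p130 that predominates in resting cells, was at 9.79, 9.76 and 9.76 in LBW 1, 2 and 3 and at 10.09, 10.26 and 10.40 in ABW 1, 2 and 3. The LBW pups were nearly equal and all below the ABW pups, with a log2 fold change of -0.48 (limma, SE 0.10, unadjusted p = 0.0028 and adjusted p = 0.2504). *Tfdp1*, the partner with which E2F factors bind DNA, had all LBW pups above all ABW pups and a log2 fold change of 0.23 (limma, SE 0.10, adjusted p = 0.419). The other genes of the list, named after their values were seen, were *Hdac1*, a histone deacetylase, at -0.17 with all LBW pups below all ABW pups, and *Dnmt1*, a DNA methyltransferase, at 0.06.

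**Figure D4:**
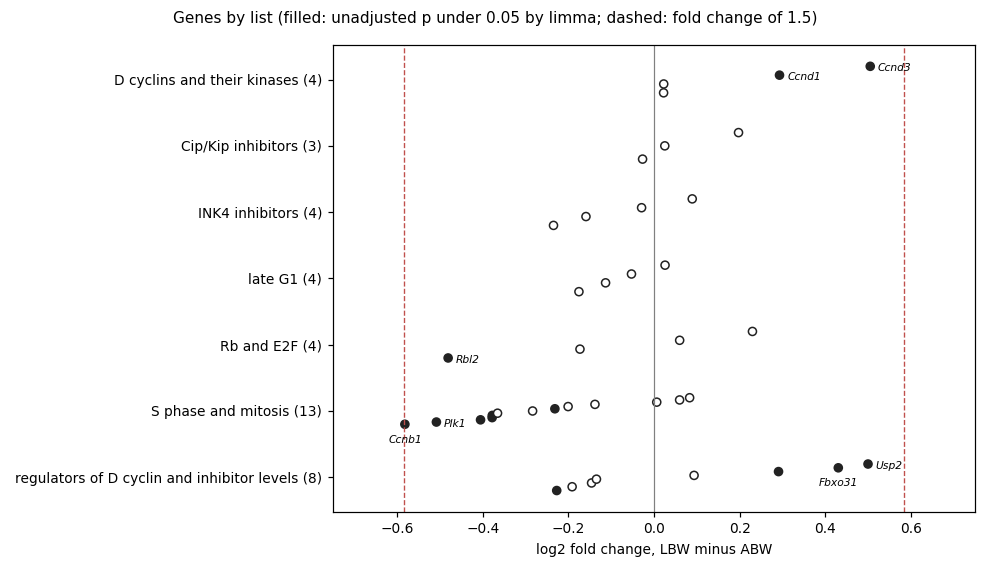
Log2 fold change of LBW over ABW for each gene of the D cyclin, inhibitor and pathway lists, with the number of genes in parentheses; filled points have an unadjusted p under 0.05 by limma, dashed lines mark a fold change of 1.5, and at most 2 filled genes per list carry their name. All points lie within the dashed lines, with *Ccnb1* at -0.58 nearest to one, and 10 of the 13 genes of S phase and mitosis lie left of 0.

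Genes of S phase and mitosis, most of which cells switch on only after the G1 phase, formed the longest of these 4 lists, and most of its members had a lower mean in LBW pups. Of 23 genes 13 had a row, 3 with a higher and 10 with a lower mean in LBW pups, and their median log2 fold change was -0.28, whereas 55.6% of all features had a lower mean. The unadjusted p was under 0.05 for 6 of the lower genes and for 0 of the higher ones (6.73% of all features were lower at this p), and the LBW values lay wholly below the ABW values for 8 (10.1% of all features) and wholly above them for 1 (7.27% of all features), *Mcm7*, named after its value was seen. *Ccnb1*, encoding cyclin B1 that takes cells into mitosis, was at 11.42, 11.45 and 11.45 in LBW 1, 2 and 3 and at 12.14, 11.91 and 12.01 in ABW 1, 2 and 3. Its groups were 0.458 apart, with a log2 fold change of -0.58 (limma, SE 0.09, unadjusted p = 0.000516 and adjusted p = 0.214), just inside the 1.5-fold limit. *Plk1*, a kinase of mitosis, was at 11.59, 11.44 and 11.28 in LBW 1, 2 and 3 and at 12.02, 11.88 and 11.94 in ABW 1, 2 and 3, again without overlap, and its log2 fold change was -0.51 (limma, SE 0.11, adjusted p = 0.2504). The other 4 of the 6 genes, named after their values were seen, were *Cdc20* (-0.41), *Tyms* (-0.38), *Cdk1* (-0.38) and *Aurka* (-0.23), with adjusted p between 0.318 and 0.391 by limma. *Pcna*, the clamp of the replication fork and the brightest gene of the list, also named after its value was seen, had a log2 fold change of 0.06 (limma, SE 0.13, adjusted p = 0.887). The count of 6 was 5 without LBW 1 or LBW 2, 3 without LBW 3, ABW 1 or ABW 2, and 2 without ABW 3, while 10 to 12 of the 13 genes had a lower mean in each of these fits. The median of the list was -0.17 without ABW 1 and between -0.21 and -0.37 without any other single pup. Of 7 red cell marker genes 3 had a row, with *Alas2* the brightest and *Slc4a1* the most different at -0.87. Their mean shifts were -0.50, 0.14 and -0.81 in LBW 1, 2 and 3. In ABW 1, 2 and 3 they were 0.30, 0.03 and -0.33. The part of red cells and their precursors in the values of the S phase and mitosis genes was not tested.

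Of the regulators of D cyclin and inhibitor levels, 8 of 18 had a row, 4 higher and 4 lower, and 3 of the higher and 1 of the lower had an unadjusted p under 0.05 (5.63% and 6.73% of all features). *Fbxo31*, part of a ligase known to target cyclin D1 for breakdown, was at 10.26, 10.59 and 10.13 in LBW 1, 2 and 3 and at 9.79, 9.95 and 9.95 in ABW 1, 2 and 3. *Usp2*, a protease known to remove ubiquitin from cyclin D1, was at 10.78, 11.10 and 10.57 in LBW 1, 2 and 3 and at 10.54, 10.25 and 10.17 in ABW 1, 2 and 3. Both genes, with opposite known actions on the protein, were thus higher in every LBW pup than in any ABW pup, with log2 fold changes of 0.43 (limma, SE 0.14, adjusted p = 0.322) and 0.50 (limma, SE 0.17, adjusted p = 0.331). *Myc* and *Mycn*, transcription factors that bind E boxes and that were named after their values were seen, had log2 fold changes of 0.29 (limma, SE 0.10, adjusted p = 0.334) and -0.23 (limma, SE 0.08, adjusted p = 0.358).

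The 2 pups with the highest *Ccnd1* signal were also those with the highest signal of bone marker genes. Of 9 bone marker genes 8 had a matched row, not including *Runx2*, which is on the array under an identifier that was not matched. All 8 had a higher mean in LBW pups and 5 were called as higher at the threshold of the study (2.38% of all features), with a median log2 fold change of 2.84. By the mean over all 6 pups the brightest was *Phex*, a regulator of mineral that bone cells make. Its log2 fold change was 0.60 (limma, SE 0.14, adjusted p = 0.264). The largest difference was that of *Spp1* (osteopontin) at 5.02 (limma, SE 1.05, adjusted p = 0.2504). In the LBW pups alone *Spp1* was brighter than *Phex*, with means of 12.35 and 10.66. Relative to the ABW mean, the 8 genes averaged 3.37, 0.68 and 4.43 in LBW 1, 2 and 3 and -0.19, 0.00 and 0.19 in ABW 1, 2 and 3. LBW 1 and LBW 3, the pups with *Ccnd1* at 12.19 and 12.18, were the 2 with strong bone signal, and LBW 2, with *Ccnd1* at 11.82, had less, though more than any ABW pup. Cartilage markers (4 of 7 with a row, 1 called as higher, *Col2a1* the brightest and *Acan* the most different at 2.07) averaged 1.27, -0.14 and 2.16 in LBW 1, 2 and 3 and 0.17, -0.27 and 0.09 in ABW 1, 2 and 3. Of 7 neutrophil markers 3 had a matched row, not including *Camp*, which is on the array under an identifier that was not matched. All 3 were called as higher, with *S100a8* the brightest and *Mmp8* the most different at 3.03, with ABW values of *Mmp8* in the range of the olfactory receptor genes. The 3 neutrophil markers averaged 2.94, 1.43 and 2.90 in the LBW pups and -0.11, 0.25 and -0.14 in the ABW pups, in the same order. The part of these cells in the *Ccnd1* values was not tested. *Ccnd3* and *Cdkn1a* had a different order, with LBW 2 above LBW 1 for both.

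**Figure D5:**
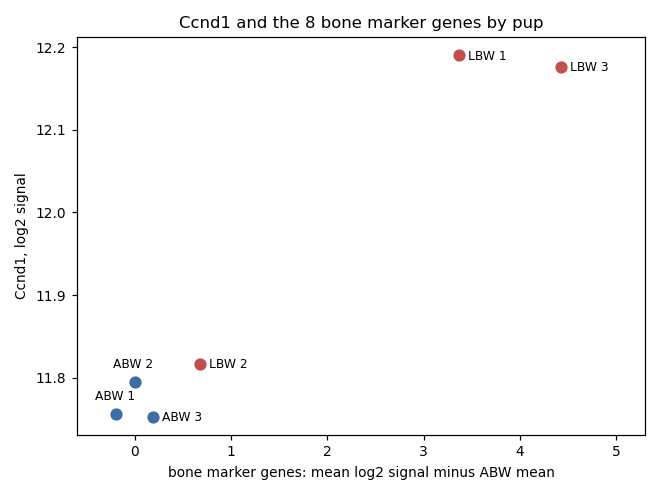
Log2 signal of *Ccnd1* (vertical axis) against the mean of the 8 bone marker genes relative to the ABW mean (horizontal axis, log2) in each of the 6 pups. LBW 1 and LBW 3 stand at the upper right, and LBW 2 lies nearer to the ABW pups, with a bone mean of 0.68 compared to 0.19 in the highest ABW pup.

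The genes whose signal was most like that of *Ccnd1*, *Cdkn1a* and *Cdk4* over the 6 arrays are given as a description, since 6 arrays and 9620 genes leave many high correlations and the arrays share the groups. For *Ccnd1* they were *Bglap* (osteocalcin, Pearson's r = 0.997), *Panx3* (0.994) and *Slc13a5* (0.993), and *Bglap* was at 13.10, 8.80 and 12.82 in LBW 1, 2 and 3 and at 7.99, 8.02 and 7.91 in ABW 1, 2 and 3. Spearman's rho with *Ccnd1* was 1, 0.89 and 0.66 for these 3 genes, in the same order. The *Panx3* and *Slc13a5* values of LBW 2 and of the ABW pups lay in the range of the olfactory receptor genes. For *Cdkn1a* they were *Lrrn1* (0.989), *Gnas* (0.985) and *Ccdc117* (0.983), and for *Cdk4* they were *Stk17b* (0.994), *Ube2j2* (0.994) and *Nae1* (0.984). The number of genes with r above 0.95 was 43 for *Ccnd1*, 34 for *Cdkn1a* and 30 for *Cdk4*. The pattern of *Ccnd1* rests on LBW 1 and LBW 3 against the other 4 pups. That of *Cdk4* rests on the spread within the groups, because its 3 most similar genes had log2 fold changes between -0.02 and 0.05.

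Muscle precursor markers and fat cell markers complete the account of the tissue around these genes. *Myog* (myogenin), which is switched on as precursors leave the cycle, was the brightest of the 3 precursor markers with a row (of 6) and had a log2 fold change of 0.25 (limma, SE 0.12, adjusted p = 0.454), with *Cdh15* (M-cadherin) at 0.29 (limma, SE 0.12, adjusted p = 0.389) and *Myod1*, named after its value was seen, at -0.11. Of 9 fat cell markers 8 had a row, all 8 had a lower mean in LBW pups (55.6% of all features) and 2 were called as lower (1.89% of all features), with *Fabp4* the brightest at -0.19 (limma, SE 0.09, adjusted p = 0.444) and *Lep* (leptin) the largest at -1.57 (limma, SE 0.55, adjusted p = 0.349). The *Lep* values of the LBW pups and of ABW 1 lay in the range of the olfactory receptor genes, so that the size of this difference is uncertain. The mean shift of the 8 fat cell markers was -0.55, -0.53 and -1.53 in LBW 1, 2 and 3 and -0.69, 0.42 and 0.27 in ABW 1, 2 and 3, so that ABW 1 lay with the LBW pups. *Cdkn1a* of ABW 1 was likewise the ABW value nearest to the LBW pups, and the part of fat cells in it was not tested.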

How the data were processed

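RNA from the skeletal muscle of 6 pups (3 LBW, 3 ABW) was hybridized to 6 single-colour NimbleGen arrays with 5 probes per transcript. The authors deposited log2 values for 26419 rows. The submitters' processing notes name RMA, and the paper's methods name in-house R scripts and Bioconductor. Version and settings are not given in the sources used here. Arrays have no read depth, and precision is limited by their number. The array design follows the rat build RGSC3.4.

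Rows were named by RefSeq transcript through a gene table of GRCr8, which named 9740 rows (36.9%) and 9621 symbols. Rows of a symbol (96 symbols had several) were averaged on the log2 scale, and the other rows entered on their own, giving 26300 features. LBW was compared with ABW with limma (version 3.58.1, R version 4.3.3; lmFit, eBayes, 2-sided, Benjamini-Hochberg over all features), and each single gene also with an exact permutation test over the pups. The main limma fit and the Student's test were tested on simulated data, and the other alternatives were not.

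The 9 genes, the gene and marker lists and the tests were chosen with earlier results of these data known, so lists are described by counts and medians with no test. Named by rule are the 9, *Cdkn1c* and *Cdkn2d*, the 2 genes with the smallest p in each pathway list, the brightest and the most different gene of the cell type lists that the report describes, and the 3 genes most correlated with *Ccnd1*, *Cdkn1a* and *Cdk4*. A few others are marked in the text as named after their values were seen. The brightest gene of a list is the one with the highest mean over all 6 pups. A further gene list and a promoter motif are not reported here. Alternatives tried were blocking on replicate number, dropping each pup in turn, median centring, quantile normalization, dropping the dimmest 25%, array weights, a robust variance, an intensity trend, the methods' Student's test, rows on their own and a fold change of at least 2. Endothelial, macrophage, Schwann cell and keratinocyte marker lists had 0 genes called (2 of 6, 5 of 7, 5 of 5 and 3 of 5 with a row), as did the fibre, precursor and red cell lists. The threshold called 4.27% of all features, a share too small to read anything from counts of 0 in lists this short.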

Additional observations from a re-analysis of the deposited data

How the results depend on the processing

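The signs of *Ccnd1*, *Ccnd3*, *Cdkn1a*, *Cdkn2a*, *Cdkn2b* and *Cdkn2c* were kept under every alternative that was run (*Cdkn2a* has no value when the dimmest 25% are left out). The number of the 9 genes at an unadjusted p under 0.05, 2 as reported, was 1 with array weights, median centring, quantile normalization, a robust variance, the methods' Student's test (*Cdkn1a*, not either of the 2 reported) or without the dimmest 25%, 3 with an intensity trend (*Ccnd1*, *Ccnd3* and *Cdkn1a*), and 0 to 2 with 1 pup left out. With the replicate number as a block it was 0. The deviations of LBW and ABW pups with the same number correlated weakly (0.087, 0.104 and 0.055), which does not settle whether the numbers paired pups. With the block 0 of the 9 genes were called, and 1230 of all features, which may not be the same features as without it; it was not run for the lists and family means. The number of the 9 genes called, 0, was 0 to 1 with 1 pup left out, which was *Ccnd3* without ABW 1 or ABW 2 (its log2 fold change ran from 0.2634 to 0.6302). *Ccnd2* turned to -0.0703 with array weights and ran from -0.1782 to 0.2037 with 1 pup left out, *Cdk4* from -0.0421 to 0.1215 and *Cdkn1b* from -0.0931 to 0.015; the cause was not tested. Of the pathway genes, 0 as reported, 1 was called with median centring (*Ccnb1*) and 1 with any 1 pup left out (*Usp2* without ABW 1 or LBW 3, *Ccnb1* without ABW 2, ABW 3 or LBW 2, *Plk1* without LBW 1). Of all features, 1124 at the threshold of the study, 584 passed by the methods' Student's test and 335 at a fold change of at least 2, and 798 to 1546 with 1 pup left out. The count after adjustment, 0, was 0 to 125, the latter without LBW 2. The fits of the family means and of the S phase and mitosis counts with pups left out, quantile normalization or median centring were chosen after seeing the data, and the family means kept their signs while their sizes moved. Signal over background is unknown, which limits *Cdkn2a* and *Cdkn2b* most.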
